A study of Arabidopsis thaliana with 16 samples.

Results

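The genes described here encode proteins of the small, 40S subunit of the cytosolic ribosome of Arabidopsis thaliana. A list of 60 loci in 23 protein families was searched for in the annotation of the array platform. Of these loci 34, in 18 families, had a probe set that the annotation pairs with that gene alone, and each had exactly 1 such probe set. A further 12 loci lay only on probe sets shared by several genes (6 probe sets), and 14 had no listed probe set. The family names used here (S2, S3a and so on) follow the standard nomenclature of plant ribosomal proteins and are not part of the data files. The locus identifiers are those of the platform annotation.

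The samples were roots of 6-day-old seedlings of the Columbia ecotype, cut into 4 numbered longitudinal zones. All seedlings grew for 5 days at pH 5.7 on Murashige and Skoog salts buffered with MES, and were then moved for 24 h to new plates at pH 4.6 or pH 5.7. Plates of either pH had the salts with 3 mM DMG, 1% sucrose and 1% agar, so the pH 5.7 control was also transferred and also carried DMG. Each zone at each pH had 2 arrays, which gave 8 groups and 16 arrays, and the labels state neither the tissue behind a zone number nor whether replicates were separate cultures. The p-values therefore rest on a spread between samples that may be technical.

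The 40S subunit binds messenger RNA and decodes it, and the 60S subunit joins it to form peptide bonds. In Arabidopsis each ribosomal protein is encoded by a small family of near-identical genes, called paralogs, and a ribosome carries a single copy of most of these proteins. Making ribosomes is among the largest costs of a growing cell, and in plants transcripts for ribosomal proteins are abundant in dividing and growing tissue. One 40S protein, S6, is phosphorylated by S6 kinase, which acts below the growth regulator TOR. Neither of the S6 loci (AT4G31700 and AT5G10360) had a listed probe set, so S6 was not analysed here.

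The deposited values are MAS5 intensities scaled to a common mean on each array, so every level is relative to the rest of that array. Levels are given as intensities, and differences as log2 fold changes of intensity + 16 ± SE from a limma model of all 8 groups, with 2 arrays per group. That model was fitted to 16405 probe sets with a mean of at least 5.95 on this log2 scale in 1 or more zones. Calls are at a Benjamini-Hochberg adjusted p under 0.05 over all of these probe sets. Of the 34 genes 33 were tested, and 32 of them passed the filter in all 4 zones. The S15 gene AT5G09500 passed in 3 zones and was below the limit in zone 4. The S15a gene AT2G39590 passed in none: its intensity lay between 1.17 and 71.1 over the 16 arrays, and it was not tested.

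Some facts about the arrays touch the results. Over the tested probe sets, the correlation of replicate arrays was lowest in zone 3 at pH 5.7 (Pearson r = 0.838) and highest at 0.958 in the pH 4.6 group of zone 4. In 4 groups, replicate 2 had a mean over plastid-encoded genes more than 1 log2 unit above replicate 1: zone 2 at pH 5.7, zone 3 at pH 5.7 and at pH 4.6, and zone 4 at pH 5.7. These are called the 4 high-plastid arrays below, a label that compares the replicates of a group and not the groups. One of them, from zone 4, averaged only 8.45 over these genes. In zone 1 the plastid-encoded genes averaged 9.91 and 10.29 at pH 4.6 against 8.25 and 8.78 at pH 5.7, on the log2 scale. No array of zone 1 is among the 4. Leaving them out therefore cannot bear on plastid level in the pH effect of zone 1. The ratio of 3′ to 5′ GAPDH control probes is a measure of how far labelled RNA was shortened. On the log2 scale it was 4.95 to 7.99 in zone 1 and 4.39 to 6.35 in zone 2. It was 4.13 to 5.59 in zone 3 and 3.25 to 5.67 in zone 4, also as log2. The part of these ratios in the zone differences was not tested.

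The 40S genes were strongly expressed in zones 1 and 2 and several-fold lower in zones 3 and 4 at both pH values. Their summed intensity was 3.03% to 3.57% of all signal on the 4 arrays of zone 1 and 2.56% to 3.58% on those of zone 2. In zone 3 it was 0.584% to 0.985%, and in zone 4 it was 0.723% to 0.938%. No array of zones 3 and 4 came near the lowest array of zones 1 and 2. All 33 tested genes were called lower in zones 3 and 4 than in zones 1 and 2, by a median of -2.14 on the log2 scale, which is 4.42-fold. All 33 were also called without the 4 high-plastid arrays. Among all tested probe sets 29.5% were called lower in this comparison, and their median change was -0.09.

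**Figure D1:**
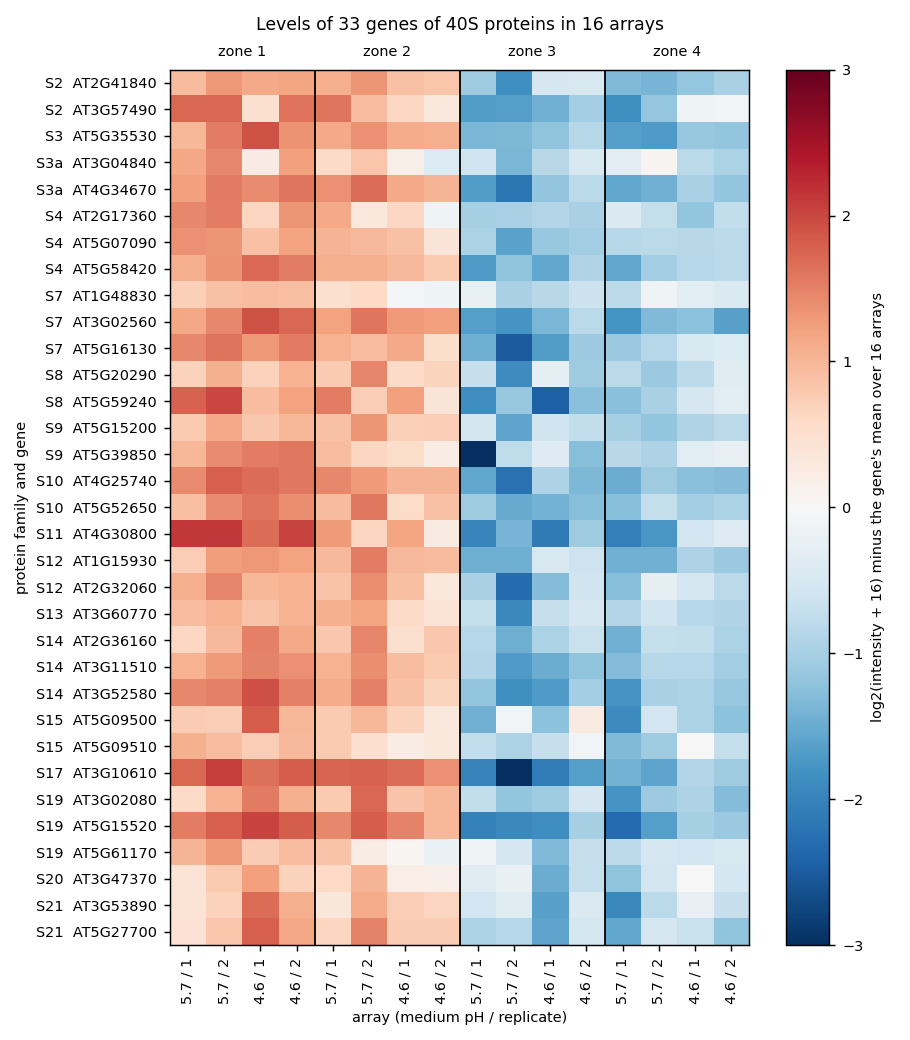
Each row is 1 of the 33 tested genes, grouped by protein family, and each column 1 of the 16 arrays, grouped by zone and labelled by pH and replicate. Colour is log2(intensity + 16) minus the gene's own mean over the 16 arrays; the colour changes from red to blue between zone 2 and zone 3, and 30 of the 33 genes have no array of zones 3 and 4 above any array of zones 1 and 2.

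The separation was complete in most genes. In 30 of the 33, each of the 8 arrays of zones 3 and 4 lay below each of the 8 arrays of zones 1 and 2, against 8.75% of all tested probe sets. The 3 exceptions were the S3a gene AT3G04840, the S7 gene AT1G48830 and the S19 gene AT5G61170, and each of these has a paralog with complete separation. The highest zone mean was in zone 1 for 32 genes and in zone 2 for 1. The lowest was in zone 3 for 23 genes and in zone 4 for 10. In whole pieces of root, fewer cells of a type with high expression and less RNA per cell cannot be told apart.

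The step from zone 2 to zone 3 at pH 5.7 carried this difference. All 33 genes fell, with a median of -2.54, or 5.81-fold, where 16.9% of all tested probe sets were called lower. Both zone 3 arrays lay below both zone 2 arrays in all 33, against 31.3% of all probe sets. All 17 tested families fell in full: the 12 tested genes for proteins of the head of the subunit had a median of -2.58, and the 21 genes for proteins of its body and platform a median of -2.51. The assignment of proteins to head, body and platform is background from structures of yeast and mammalian ribosomes.

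Among proteins of the head, S17 had the largest fall. The single S17 gene with its own probe set, AT3G10610, read 5829 and 5939 in zone 2 and 420 and 183 in zone 3 at pH 5.7. Its change was -4.32 ± 0.32 (limma adjusted p = 3.27e-07), and both zone 3 arrays lay far below both zone 2 arrays. S3 (AT5G35530), which lines the channel where messenger RNA enters, changed by -2.62 ± 0.27. The S12 genes, whose protein sits in the beak of the head, changed by -2.71 ± 0.26 (AT1G15930) and -2.77 ± 0.42 (AT2G32060). The S10 genes, for another protein of the beak, changed by -3.25 ± 0.28 (AT4G25740) and -2.55 ± 0.30 (AT5G52650). S15 and S20, also of the head, showed smaller falls: -1.48 ± 0.30 and -1.65 ± 0.57 in the S15 genes AT5G09510 and AT5G09500, and -1.10 ± 0.33 in the S20 gene AT3G47370. The S15 genes are neighbours in the genome.

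S19, a head protein whose mutation causes a red cell anaemia in humans, spanned nearly the whole range of the 40S genes. AT5G15520 read 2125 and 2748 in zone 2 and 179 and 190 in zone 3 at pH 5.7, a change of -3.60 ± 0.33 (limma adjusted p = 1.38e-06). AT5G61170 read 5235 and 3336 in zone 2 and 2679 and 2005 in zone 3, a change of -0.85 ± 0.30 (adjusted p = 0.0419), the smallest fall of the 33. The third gene, AT3G02080, lay between them at -2.21 ± 0.36. The zone 2 values of AT5G61170 lay farther from each other than the lower of them lay from the higher zone 3 value.

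Among proteins of the body and platform, S3a and S7 were also uneven, though less than S19. The S3a gene AT4G34670 read 12504 and 15618 in zone 2 and 1502 and 1047 in zone 3, and changed by -3.46 ± 0.27 (limma adjusted p = 3.93e-07). Its paralog AT3G04840 read 5465 and 6599 in zone 2 and 2432 and 1409 in zone 3, and changed by -1.69 ± 0.35 (adjusted p = 0.0018). S3a is a platform protein close to where messenger RNA leaves the subunit. The S7 gene AT3G02560 read 11959 and 15644 in zone 2 and 1632 and 1501 in zone 3, a change of -3.11 ± 0.28, and AT5G16130 changed by -2.97 ± 0.33. The S7 gene AT1G48830 read 5531 and 6011 in zone 2 and 3421 and 2036 in zone 3, a change of -1.12 ± 0.29 (adjusted p = 0.00775). In both families the groups did not overlap for any of these genes.

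The other families were more even. S2 and S9, which flank the entry of the messenger RNA channel and bear on decoding accuracy in yeast, changed by -2.66 ± 0.27 (AT2G41840) and -2.92 ± 0.38 (AT3G57490), and by -2.16 ± 0.31 (AT5G15200) and -2.75 ± 0.55 (AT5G39850). The last value leaned on 1 array: AT5G39850 read 4.71 and 92.0 in zone 3, and without the first of these, zone 3 pH 5.7 replicate 1, its change was -1.55. The 3 S14 genes, for a platform protein, ranged from -2.83 to -2.29, and the 3 S4 genes from -2.54 to -1.70. The S8 genes were at -2.65 and -2.41, the S11 gene AT4G30800 at -2.66 ± 0.39 and the S13 gene AT3G60770 at -2.45 ± 0.32. The S21 genes fell less, with -1.97 ± 0.42 in AT5G27700 and -1.18 ± 0.42 in AT3G53890. Of the 33 calls, those of AT3G53890, AT5G61170 and AT5G09500 were the least stable, kept under 10, 12 and 17 of 24 alternative settings. Without zone 2 pH 5.7 replicate 1 the change of AT5G61170 was -0.52, and without zone 3 pH 5.7 replicate 1 that of AT5G09500 was -0.97, neither of them called. Without the 4 high-plastid arrays 28 of the 33 genes were called, with a median of -2.14.

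**Figure D2:**
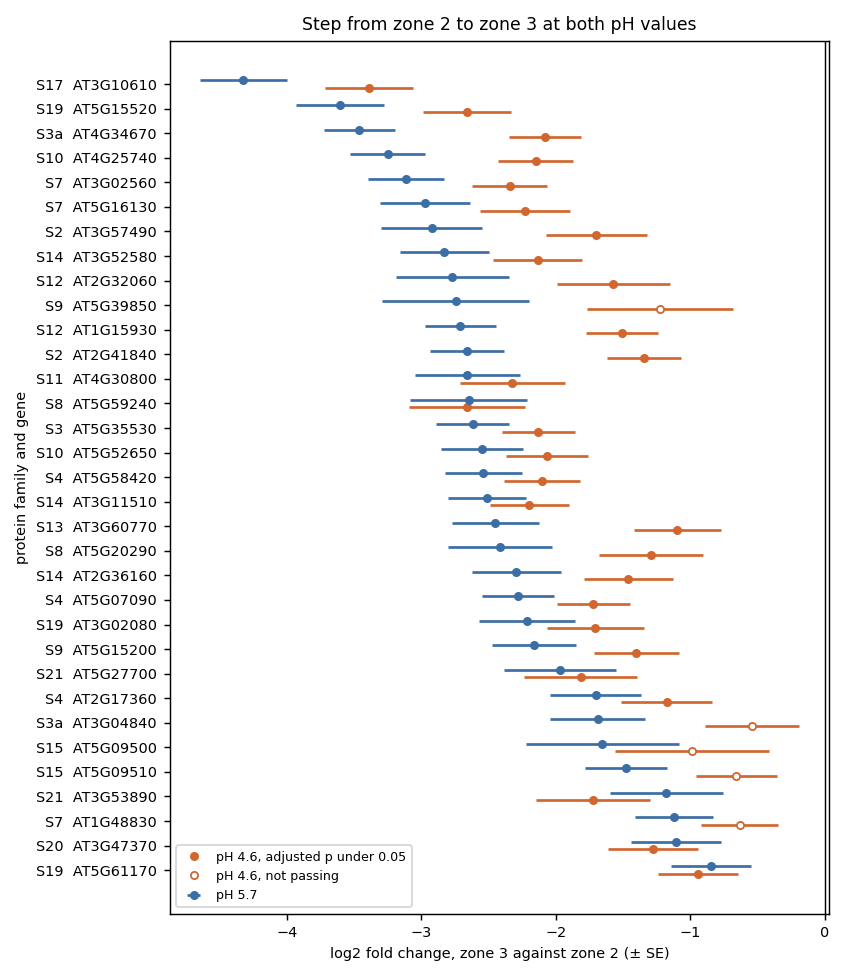
Points are log2 fold changes of zone 3 against zone 2 for each gene, with bars of 1 SE, at pH 5.7 (blue) and pH 4.6 (orange; open where the adjusted p did not pass 0.05), ordered by the change at pH 5.7. All points lie below 0, from -4.32 for the S17 gene AT3G10610 to -0.85 for the S19 gene AT5G61170 at pH 5.7, and 29 of 33 genes have the larger fall at pH 5.7.

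At pH 4.6 the same step called 28 of the 33 genes lower, with a median of -1.71, or 3.26-fold, where 9.53% of all tested probe sets were called lower. Both zone 3 arrays lay below both zone 2 arrays in all 33, against 32.2% of all probe sets. AT3G10610 again had the largest change (-3.39 ± 0.32), reading 5529 and 4451 in zone 2 and 392 and 537 in zone 3. AT5G15520 changed by -2.66 ± 0.33. The S8 gene AT5G59240 changed by -2.66 ± 0.43, with zone 3 arrays at 23.3 and 73.9, a group mean of 5.89 on the log2 scale that lies below the filter limit, and values from -3.26 to -1.95 over the alternatives. The 5 genes not called were AT3G04840 (-0.54 ± 0.35), AT1G48830 (-0.63 ± 0.29), the S15 genes AT5G09510 (-0.66 ± 0.30) and AT5G09500 (-0.99 ± 0.57), and the S9 gene AT5G39850 (-1.22 ± 0.55). All tested members were called in 13 of 17 families. Without zone 3 pH 4.6 replicate 1 the count was 18 of 33, and without the 4 high-plastid arrays it was 27.

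The fall was smaller at pH 4.6 in 29 of 33 genes, but no gene passed a direct test. The low pH effect in zone 3 minus that in zone 2, a contrast added after the data were seen, had a median of 0.74 over the 33 genes and 0.08 over all tested probe sets. Root hair marker genes rose over this step by a median of 3.24 at pH 4.6 and 6.15 at pH 5.7, and 0 of the 4 were called in this contrast by limma. Their part in the 40S values was not tested. The contrast called 0 of the 33 40S genes and 0.524% of all probe sets, with 7 genes at unadjusted p under 0.05, all of them positive. The lowest p was that of the S3a gene AT4G34670 (1.38 ± 0.38, adjusted p = 0.132). Without the 4 high-plastid arrays the median was 0.22, and the median step was then -2.14 at pH 5.7 and -1.92 at pH 4.6. The count of 0 did not hold when either zone 3 pH 5.7 array was left out. The share of all probe sets called in those fits is not given here.

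Zone 1 and zone 2 differed little at pH 5.7. No 40S gene was called, where 3.14% of all tested probe sets were called in either direction, and the median change was -0.05, with 2 genes lower at unadjusted p under 0.05. The lowest value was that of the S11 gene AT4G30800, which read 1880 and 1898 in zone 1 and 1048 and 666 in zone 2 (-1.16 ± 0.39, limma adjusted p = 0.133). At pH 4.6 all 33 values were negative with a median of -0.60, and 10 genes were lower at unadjusted p under 0.05. Only AT1G48830 was called, where 3.44% of all probe sets were called lower. It read 7643 and 7414 in zone 1 and 3821 and 3630 in zone 2 (-1.01 ± 0.29, adjusted p = 0.0406). That call was lost under median centring and quantile normalization, and without any single array of zone 1 at either pH or of zones 2, 3 or 4 at pH 4.6. More 40S genes were called without the 4 high-plastid arrays, but the share of all probe sets called in that fit is not given here.

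From zone 3 to zone 4 the genes stayed low. At pH 5.7 the median change was 0.15, and AT3G10610 was the single gene called higher, where 6.63% of all probe sets were called higher. It read 420 and 183 in zone 3 and 630 and 560 in zone 4 (1.05 ± 0.32, limma adjusted p = 0.0466). Its zone 4 level was still below each of its readings in zones 1 and 2, and the call was lost under each other pseudocount and each other scaling tried. It was also lost when any single array but zone 3 pH 5.7 replicate 1 was left out. Without that array its change was 1.62, and without replicate 2 of the same group its change was 0.49. Without the 4 high-plastid arrays the median over the 33 genes was -0.21. At pH 4.6 no gene was called, where 4.19% of all probe sets were, and the median was 0.27, with 6 genes higher and 1 lower at unadjusted p under 0.05. The lowest adjusted p was that of the S8 gene AT5G59240 (1.44 ± 0.43, adjusted p = 0.078).

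The study asked, per its title, about the response of developing root to low pH, and no 40S gene was called for pH in any zone. In zone 1 the median effect of pH 4.6 against pH 5.7 was 0.11, 19 values were positive and 14 negative, and 0 genes were at unadjusted p under 0.05. Over all tested probe sets 0.683% were called. That median turned to -0.04 when each array was centred on its median and to -0.08 under quantile normalization. Both pH 4.6 arrays of zone 1 had a higher mean over plastid-encoded genes than both pH 5.7 arrays. The part of this difference in the zone 1 values was not tested.

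In zone 2 all 33 values were negative, with a median of -0.38, yet 0 genes were called and 3 were lower at unadjusted p under 0.05. The background there was 0.384% of all tested probe sets. Both pH 4.6 arrays lay below both pH 5.7 arrays in 21 of the 33 genes (63.6%), against 21% of all probe sets. Median levels of the 40S genes were 12.8 and 12.9 on the log2 scale on the zone 2 arrays at pH 5.7, and 12.7 and 12.4 at pH 4.6. AT3G04840 had the lowest value, with 5465 and 6599 at pH 5.7 and 4177 and 2778 at pH 4.6 (-0.81 ± 0.35, limma adjusted p = 0.413). Without the 4 high-plastid arrays the median was -0.25.

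In zone 3 the values were mostly positive, 25 of 33 with a median of 0.34, and 0 genes were called where 2.8% of all probe sets were. At unadjusted p under 0.05, 7 were higher and 2 lower. The S2 gene AT2G41840 read 3476 and 2022 at pH 5.7 and 5157 and 5263 at pH 4.6 (0.97 ± 0.27, limma adjusted p = 0.0712). The S12 gene AT1G15930 read 3560 and 3578 at pH 5.7 and 7014 and 6443 at pH 4.6 (0.91 ± 0.26, adjusted p = 0.0794). AT4G34670 read 1502 and 1047 at pH 5.7 and 2132 and 2757 at pH 4.6 (0.94 ± 0.27, adjusted p = 0.0712). These 3 genes were called under quantile normalization. The lowest value was that of the S20 gene AT3G47370 (-0.80 ± 0.33, adjusted p = 0.225). Without the 4 high-plastid arrays, which leaves 1 zone 3 array at each pH, the median over the 33 genes was -0.10. On those 2 arrays AT5G39850 read 4.71 at pH 5.7 and 125 at pH 4.6, so its difference there rested on 1 very low reading.

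In zone 4, 28 of 33 values were positive with a median of 0.32, and 0 genes were called where 2.91% of all probe sets were. Both pH 4.6 arrays lay above both pH 5.7 arrays in 17 of the 33 genes (51.5%), against 29.2% of all probe sets. When each array was centred on its median, the median over the 33 genes was 0.18 and 11 values were negative, and without zone 4 pH 5.7 replicate 1 it was 0.22 with 16 negative. The S11 gene AT4G30800 read 89.9 and 114 at pH 5.7 and 275 and 316 at pH 4.6 (1.41 ± 0.39, limma adjusted p = 0.0641). The S2 gene AT3G57490 read 92.1 and 157 at pH 5.7 and 335 and 348 at pH 4.6 (1.39 ± 0.38, adjusted p = 0.0602). Both are far dimmer in zone 4 than in zone 1 at pH 5.7. At pH 4.6 the gap was smaller for AT3G57490, which read 521 and 1184 in zone 1. AT3G04840 went the other way, from 2936 and 3870 at pH 5.7 to 2106 and 1885 at pH 4.6 (-0.75 ± 0.35, adjusted p = 0.304). The count of 0 in zone 4 did not hold when either zone 3 pH 5.7 array was left out of the shared fit. Nor did it hold when either zone 1 pH 4.6 array or zone 3 pH 4.6 replicate 2 was left out. The share of all probe sets called in those fits is not given here.

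**Figure D3:**
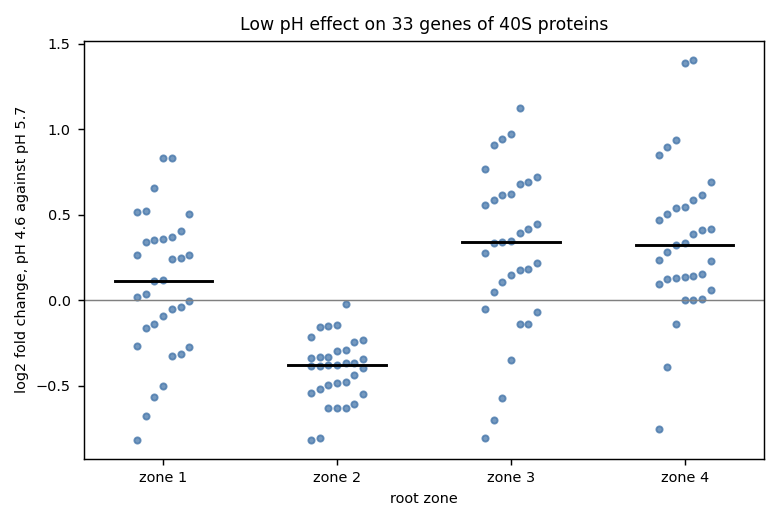
Each point is the log2 fold change of pH 4.6 against pH 5.7 for 1 of the 33 tested genes in 1 zone, spread sideways only to keep points apart, and the black line is the median of the 33. The medians are 0.11, -0.38, 0.34 and 0.32 in zones 1 to 4, and 0 genes were called in any zone.

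The mean low pH effect over the 4 zones also called 0 of 33 genes, where 6.07% of all probe sets were called, and had a median of 0.13. The moderated F-test for a low pH effect that differs between zones called 0 of 33, against 1.59% of all probe sets. It had 7 genes at unadjusted p under 0.05, and the lowest adjusted p was 0.0824 for AT3G57490. Its count of 0 did not hold without zone 3 pH 5.7 replicate 1 or without zone 1 pH 4.6 replicate 2. The share of all probe sets called in those fits is not given here. With 2 arrays per group the median SE of a member's pH effect in 1 zone was 0.33 on the log2 scale.

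Paralogs of a family were compared through the log2 ratio of their intensities, each + 16, within each array. This removes the scaling of the array for bright genes, but not fully for dim genes, where the added 16 weighs. The size of such a ratio also holds the brightness of each probe set, so only its change between arrays is read. That a probe set reads 1 gene rests on the annotation alone. Probe sequences were not checked, and whether a probe set also picks up its paralogs was not tested. A change in a ratio is thus a change in probe set signal. For each of the 20 pairs within 12 families, zones 3 and 4 were set against zones 1 and 2 with an exact permutation test over the 16 arrays. In this exact test zone labels were exchanged within each pH (4900 arrangements, two-sided, lowest possible p = 0.000408), and p-values were adjusted over the 20 pairs. In 11 of the 20 pairs the ratio changed, and these came from 6 families: S3a, S4, S7, S10, S14 and S19.

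The widest change was in S19. The log2 ratio of AT5G15520 over AT5G61170 ran from -1.38 to -0.28 on the 8 arrays of zones 1 and 2 (median -0.83), and from -3.79 to -2.17 on the 8 arrays of zones 3 and 4 (median -2.79). The ranges do not overlap, and the difference of means was -1.99 (exact permutation adjusted p = 0.00163). The ratio of AT3G02080 over AT5G15520 moved by 1.08 (adjusted p = 0.00272), and that of AT3G02080 over AT5G61170 by -0.91 (adjusted p = 0.0035). All 3 S19 genes thus fell by different amounts, AT5G61170 least and AT5G15520 most.

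In S7 the ratio of AT1G48830 over AT3G02560 ran from -1.72 to -0.79 in zones 1 and 2 (median -1.27) and from -0.19 to 1.06 in zones 3 and 4 (median 0.60). The difference was 1.82, and that of AT1G48830 over AT5G16130 was 1.33 (exact permutation adjusted p = 0.00163 each, with ranges that do not overlap). The remaining S7 pair, AT3G02560 over AT5G16130, moved by -0.49 and did not pass (adjusted p = 0.124). AT1G48830 thus fell less than both of its paralogs.

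In S3a the ratio of AT3G04840 over AT4G34670 ran from -1.83 to -0.47 in zones 1 and 2 (median -1.22) and from -0.23 to 1.12 in zones 3 and 4 (median 0.19). The difference was 1.44 (exact permutation adjusted p = 0.00163), again without overlap. In S14 the ratio of AT2G36160 over AT3G52580 ran from 1.03 to 2.01 in zones 1 and 2 and from 2.04 to 2.60 in zones 3 and 4, a difference of 0.69 with ranges that just miss each other (adjusted p = 0.00163). The other S14 pairs moved by 0.38 (AT2G36160 over AT3G11510, adjusted p = 0.00816) and 0.31 (AT3G11510 over AT3G52580, adjusted p = 0.0196).

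**Figure D4:**
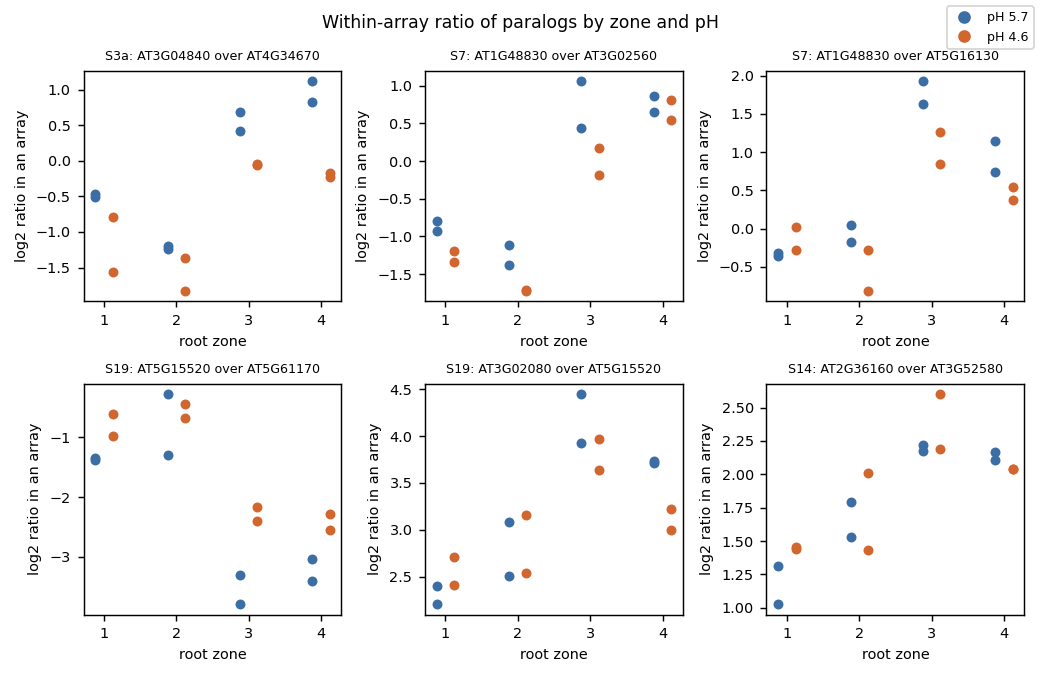
Each panel plots the log2 ratio of 2 paralogs on each of the 16 arrays against root zone, with pH 5.7 in blue and pH 4.6 in orange. In all panels but that of AT3G02080 over AT5G15520 the 8 arrays of zones 1 and 2 do not overlap the 8 arrays of zones 3 and 4; in the S3a panel the pH 4.6 arrays lie below the pH 5.7 arrays in all 4 zones.

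Smaller shifts passed in S4, where AT2G17360 over AT5G58420 moved by 0.68 (exact permutation adjusted p = 0.00907), and in S10, where AT4G25740 over AT5G52650 moved by -0.49 (adjusted p = 0.0245). Their ranges overlapped. Pairs that did not pass include S12 (-0.21, adjusted p = 0.47), S2 (0.07, adjusted p = 0.843), S9 (0.12, adjusted p = 0.843), S21 (0.29, adjusted p = 0.0848), S15 (-0.40, adjusted p = 0.233) and S8 (0.70, adjusted p = 0.124). The 2 other S4 pairs moved by 0.29 (adjusted p = 0.11) and 0.39 (adjusted p = 0.0578). The SD of the ratio over the 8 arrays of zones 3 and 4 was 0.93 in S8 and 1.11 in S9, against 0.18 in the S14 pair of AT2G36160 and AT3G52580. The dimmer gene of these pairs read 23.3 to 81.9 on the 4 zone 3 arrays in S8 (AT5G59240) and 4.71 to 125 in S9 (AT5G39850). All 11 pairs that passed did so under all 21 alternatives run for them.

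The same ratios were tested for pH in an exact permutation test, with pH labels exchanged within each zone (1296 arrangements, two-sided, lowest possible p = 0.00154). Of the 20 pairs 3 passed, from the families with the widest zone shifts. In S3a, AT3G04840 over AT4G34670 was lower at pH 4.6 in all 4 zones: the mean ratio of 2 arrays was -0.49 at pH 5.7 and -1.17 at pH 4.6 in zone 1, -1.22 and -1.59 in zone 2, 0.56 and -0.05 in zone 3, and 0.98 and -0.20 in zone 4. The mean difference was -0.71 (exact permutation adjusted p = 0.0309). The gap was widest in zone 4 and narrowest in zone 2, and this difference between zones was not tested.

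In S7, AT1G48830 over AT3G02560 moved by -0.43 at pH 4.6 (exact permutation adjusted p = 0.0309), again lower in all 4 zones, with 0.75 against -0.01 in zone 3 and 0.76 against 0.68 in zone 4. In S19, AT5G15520 over AT5G61170 moved by 0.71 (adjusted p = 0.0412), higher at pH 4.6 in all 4 zones, with -3.54 at pH 5.7 against -2.28 at pH 4.6 in zone 3. In these 3 pairs the shift at pH 4.6 ran opposite to the shift from zones 1 and 2 to zones 3 and 4. The S3a pair passed under 18 of 21 alternatives, the S7 pair under 11 and the S19 pair under 5. Leaving out either zone 1 pH 5.7 array left 0 pairs. Leaving out zone 3 pH 5.7 replicate 1, either zone 3 pH 4.6 array, zone 4 pH 5.7 replicate 2 or zone 4 pH 4.6 replicate 1 left 1 pair, and leaving out the 4 high-plastid arrays left 5.

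The 12 loci on shared probe sets, from families such as S16, S17, S20 and S23, could be followed only as 6 sums of several genes. All 6 probe sets were called lower from zone 2 to zone 3 at pH 5.7, by -2.19 to -1.27, against 16.9% of all tested probe sets. At pH 4.6 the same step called 4 of the 6 lower, against 9.53% of all tested probe sets. None was called for pH within a zone. In the mean pH effect over zones 1 was called lower, against 394 of all 16405 tested probe sets.

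Other genes of ribosome production and use gave a mixed picture for the same step at pH 5.7, from the few members with a probe set of their own. All 4 tested of 16 ribosome biogenesis factors fell, with a median of -3.02. AT3G12860 and AT3G05060, of the related NOP56 and NOP58 families that take part in ribosomal RNA modification, changed by -3.63 ± 0.40 and -3.41 ± 0.32. AT5G41190, the NOB1 endonuclease that matures the RNA of the 40S subunit, changed by -2.62 ± 0.26, and the RNA helicase AT5G60990 by -1.13 ± 0.38. At pH 4.6 the first 3 of these passed. Of 15 translation initiation factors 2 were tested: AT2G40290, an eIF2 alpha subunit, fell (limma adjusted p = 0.00792) and EIF4A-2, an RNA helicase, stood at -0.27 ± 0.25 (limma adjusted p = 0.443). Of 7 genes of the S6 kinase and TOR pathway 2 were tested, RAPTOR1 (-0.13 ± 0.33) and RAPTOR2 (-0.05 ± 0.54), and 0 passed. None of 8 elongation factor and RACK1 genes had a listed single-gene probe set.

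Ribosomal protein genes of the plastid genome were not called over this step. Of 8 small subunit genes of the plastid 0 were called from zone 2 to zone 3 at pH 5.7, with a median of -0.12, and of 7 large subunit genes 0 were called, with a median of -0.32. Their SEs, 0.44 to 1.10, were larger than those of the 40S genes, and the difference between the 2 sets was not tested.

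Some markers of cell types moved over the same step. All 4 tested of 6 root hair genes rose from zone 2 to zone 3 at pH 5.7, by a median of 6.15, and their summed intensity was 37.7 to 302 on the zone 2 arrays and 2020 to 13740 on the zone 3 arrays. Of 13 genes of dividing cells 4 were tested: the histones HTB1 (-2.01 ± 0.29) and HTB4 (-2.13 ± 0.35) fell, while the mitotic kinases AUR1 (-0.14 ± 0.48) and AUR2 (-0.30 ± 0.39) did not pass. Their summed intensity was 5975 to 11530 in zone 2 and 2155 to 2869 in zone 3. BBM, a stem cell regulator, was the 1 tested of 6 genes of the stem cell niche, at 112 to 176 in zone 1 and 2.24 to 11.7 in zone 2. From zone 2 to zone 3 at pH 5.7 it changed by 0.64 and was not called. The 3 tested of 6 genes of green shoot cells, LHCB4.1, PSBW and RCA, rose, with a summed intensity of 95.3 to 166 in zone 2, 433 to 1199 in zone 3 and 1169 to 1785 in zone 4. Root pieces should hold little green tissue, and the source of this signal was not tested. Between pH values within a zone, 3 of the 4 root hair genes were called lower at pH 4.6 in zone 3 (median -2.45) and 3 in zone 4 (median -2.68). The median of the 40S genes was positive there (0.34 and 0.32). In zones 1 and 2, where 0 root hair genes were called (medians 0.07 and 0.56), the 40S medians were 0.11 and -0.38. That of zone 1 changed sign under both other scalings. The part of these cell types in the fall of the 40S genes and in their values at low pH was not tested.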

How the data were processed

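Total RNA from 16 root samples was amplified in the two-cycle Affymetrix protocol to biotin-labelled cRNA and hybridised to 1-colour arrays, per the labels' protocols. The deposited values are linear intensities, 1 per probe set and array; MAS5 is named in the submitters' processing notes without a version. The mean between the 2nd and the 98th percentile is 250 on every array. Array number limits the precision.

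Of 22810 probe sets 64 controls were left out. The platform annotation names 1 gene for 13513, several for 503 and none for 8730. Intensities were taken as log2(value + 16), which understates changes of dim genes. Probe sets with any zone mean at or above the 40th percentile of all zone means were tested. The model held 8 group means and no block. It used lmFit and eBayes (trended prior) of limma 3.58.1 under R 4.3.3, with 8 residual and 7.44 prior degrees of freedom, two-sided. For a single gene in 1 zone, exact permutation allows no p under 0.333 and was not used. Code was tested on simulated data.

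The members, lists and alternatives were chosen with earlier results of these data known. Genes named are called members with the largest and smallest changes, uncalled members and paralogs that passed. Alternatives were 2 other pseudocounts, no filter, median centring, quantile normalization, no intensity trend, a replicate block, leaving out each array, and leaving out the 4 high-plastid arrays. Promoter motifs, protein sequences and 60S genes were not analysed here. Coordinates are left out, because the files name no genome build.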

Additional observations from a re-analysis of the deposited data

Results flagged for a closer look

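The low pH effect on the median level of the 40S genes ran in opposite directions in zone 2 and zone 4. On the log2 scale the array median was lower on both pH 4.6 arrays than on both pH 5.7 arrays in zone 2, by -0.32, and higher on both in zone 4, by 0.30. The zone 4 effect less the zone 2 effect was 0.619, and this difference was not tested. Tested gene by gene, the dependence of the pH effect on zone called 0 of 33 genes by limma, with 7 at unadjusted p under 0.05. Zone 2 pH 5.7 replicate 2 and zone 4 pH 5.7 replicate 2 are among the 4 high-plastid arrays; without the 4, the median over genes was -0.25 in zone 2 and 0.48 in zone 4. With each array centred on its median the zone 4 value was 0.18.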

How the results depend on the processing

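The counts of 33 genes lower in zones 3 and 4 and of 11 paralog pairs changed by zone stayed within 1.5 times under every alternative, with ranges of 33 to 33 and 11 to 13 when 1 array was left out, and so did the 33 genes lower from zone 2 to zone 3 at pH 5.7 (30 to 33). No called result reversed. Medians over the 33 genes, with no call behind them, changed sign without the 4 high-plastid arrays from 0.15 to -0.21 (zone 3 to zone 4 at pH 5.7) and from 0.34 to -0.10 (pH in zone 3). For pH in zone 1 the median of 0.11 became -0.04 under median centring, -0.08 under quantile normalization and -0.04 without zone 1 pH 5.7 replicate 1. Leaving out 1 array also turned those from zone 1 to zone 2 at pH 5.7 (-0.05 to 0.09 and 0.12) and from zone 3 to zone 4 at pH 4.6 (0.27 to -0.02). The single gene higher from zone 3 to zone 4 at pH 5.7 became 0 with a pseudocount of 1 or 64, with no filter, median centring, quantile normalization or no intensity trend, and 0 to 6 when 1 array was left out. The single gene lower from zone 1 to zone 2 at pH 4.6 became 0 with no filter, median centring, quantile normalization or no intensity trend, 6 without the 4 high-plastid arrays, and 0 to 2 when 1 array was left out. The step from zone 2 to zone 3 at pH 4.6 had 18 to 29 calls when 1 array was left out. Counts of 0 became 1 from zone 3 to zone 4 at pH 4.6 under quantile normalization and without the 4 high-plastid arrays (0 to 1 leaving out 1 array). For pH in zone 3 they became 3 under quantile normalization and 1 without the 4 arrays (0 to 5), for pH in zone 4 they ranged from 0 to 2, and for the mean pH effect they became 1 without the 4 arrays (0 to 1). The pH effect in zone 3 minus that in zone 2 ranged from 0 to 4, and the interaction from 0 to 3. Pairs changed by pH numbered 1 under quantile normalization, 5 without the 4 arrays and 0 to 4 leaving out 1 array. The causes were not tested. Leaving out an array leaves 1 sample in its group, which is assumed to vary like the others. Replicate numbers did not pair the samples: over 28 pairs of groups the same-number deviations correlated between -0.25 and 0.41 (median 0.01, 9 over 0.1). With a replicate block the gene counts did not change, and the paralog pairs numbered 12 by zone and 0 by pH. In the blocked pH test, labels are exchanged only between single arrays of a zone and replicate number. So few arrangements exist that a single pair cannot pass after adjustment over the 20 pairs. The 0 by pH therefore does not show that the pH shifts were lost. This block is among the alternatives that the S3a, S7 and S19 pairs lost for pH. Dim genes such as AT5G09500 limit what could be detected in zones 3 and 4.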
